A study of Homo sapiens with 8 samples.

Results

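Chromosome 7 was examined over its full length in single RPE-1 hTERT cells, as 797 consecutive 200 kb bins of the 15159 bins that cover the autosomes and X. The bins were taken by position alone, but the intervals compared within the chromosome, both on the long arm, were set because earlier work on these files had seen fewer molecules there in CFAP20-KO cells. The proximal interval runs from 65 to 75 Mb and holds 50 bins, the distal interval runs from position 105000001 to the end at 159335821 and holds 272 bins, and the remaining 475 bins served for comparison. RPE-1 hTERT is a telomerase-immortalised human epithelial line from the retinal pigment layer. It was studied as CFAP20-KO cells, in which the gene of a ciliary protein is knocked out, and as wild-type (WT) cells. All cells of both genotypes were labelled for 15 min with EdU at 10 µM, which replaces thymidine in newly made DNA, were fixed in ethanol and were sorted as single cells into 8 plates, each with both genotypes. The labelled DNA of each well was then sequenced by scEdU-seq. The sources used here do not give the number of KO clones, and nothing states that the plates were separate cultures, so p-values measure the spread between plates only.

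A chromosome is copied from many origins, and each region fires at a characteristic time in S phase, gene-rich regions mostly early and gene-poor regions mostly late. The label that a region collects in a population of S-phase cells follows how many template copies of it the cells hold, when it is copied and how many cells were caught at that time. The proximal interval includes the Williams-Beuren region, a stretch flanked by near-identical repeats, and distal 7q carries long neuronal genes along with signalling and chromatin genes. Copy number itself was not measured here.

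The 8 plates held 1746074 to 4181841 fragments in 3023 wells, 1429 KO and 1594 WT, and no cell name occurred in more than 1 plate. A fragment was counted as 1 molecule, and a library is the sum of the cells of 1 genotype on 1 plate with at least 1000 autosomal molecules, 1140 KO and 1290 WT cells in all. Chromosome 7 held 4.90% to 5.14% of the autosomal and X fragments of a plate. KO wells were fewer in the most strongly labelled class: 169 KO wells against 318 WT wells had 20000 or more autosomal molecules. The class of 5000 to under 20000 molecules held more KO wells, 262 against 165 WT wells. With at least 5000 molecules there were 431 KO and 483 WT wells in all.

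KO cells had 0.624 times the WT share of molecules in the distal interval and 0.644 times the WT share in the proximal interval, while in the rest of the chromosome they had 0.958 times the WT share. Because the intervals were set from this difference, these values are a description and carry no test. In the distal interval the share of the library was 1.07%, 1.10% and 1.15% (lowest, median and highest plate) in KO cells, against 1.74%, 1.76% and 1.83% in WT cells. The genotypes did not overlap, and each plate was lower in KO cells, with a log2 of KO over WT of -0.68 ± 0.05 (SD, n = 8). In the proximal interval the share was 0.176%, 0.190% and 0.213% in KO cells, against 0.268%, 0.306% and 0.323% in WT cells. These groups did not overlap either, and the log2 difference of -0.64 ± 0.15 (SD, n = 8) varied more between plates, from -0.82 to -0.38. In the rest of the chromosome the shares were 3.06%, 3.18% and 3.24% in KO cells and 3.15%, 3.32% and 3.37% in WT cells. There the genotypes overlapped, and the difference was -0.06 ± 0.05 (SD, n = 8), lower in KO on 7 of 8 plates. When each cell was given equal weight in place of each molecule, the distal difference shrank to -0.36 and the proximal one to -0.42.

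Relative to the median bin of the library, the distal interval stood at 0.613 ± 0.0239 in KO cells and at 0.952 ± 0.0162 in WT cells (SD, n = 8 each). The proximal interval stood at 0.586 ± 0.0367 in KO cells and at 0.883 ± 0.0608 in WT cells. The rest stood at 1.01 ± 0.0290 in KO cells and at 1.02 ± 0.0168 in WT cells. In windows of 5 Mb, 12 of the 32 on chromosome 7 had a log2 of KO over WT at or below -0.5, against 8 of 545 windows on the other chromosomes (1.47%). The lowest window on the other chromosomes stood at -1.09, below the lowest on chromosome 7 at -0.86. Both windows of the proximal interval and 10 of the 11 distal windows were among the 12, and the other distal window, from 115 to 120 Mb, stood just outside the limit at -0.49. The intervals were set from this same difference, so this count of windows is a description.

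**Figure D1:**
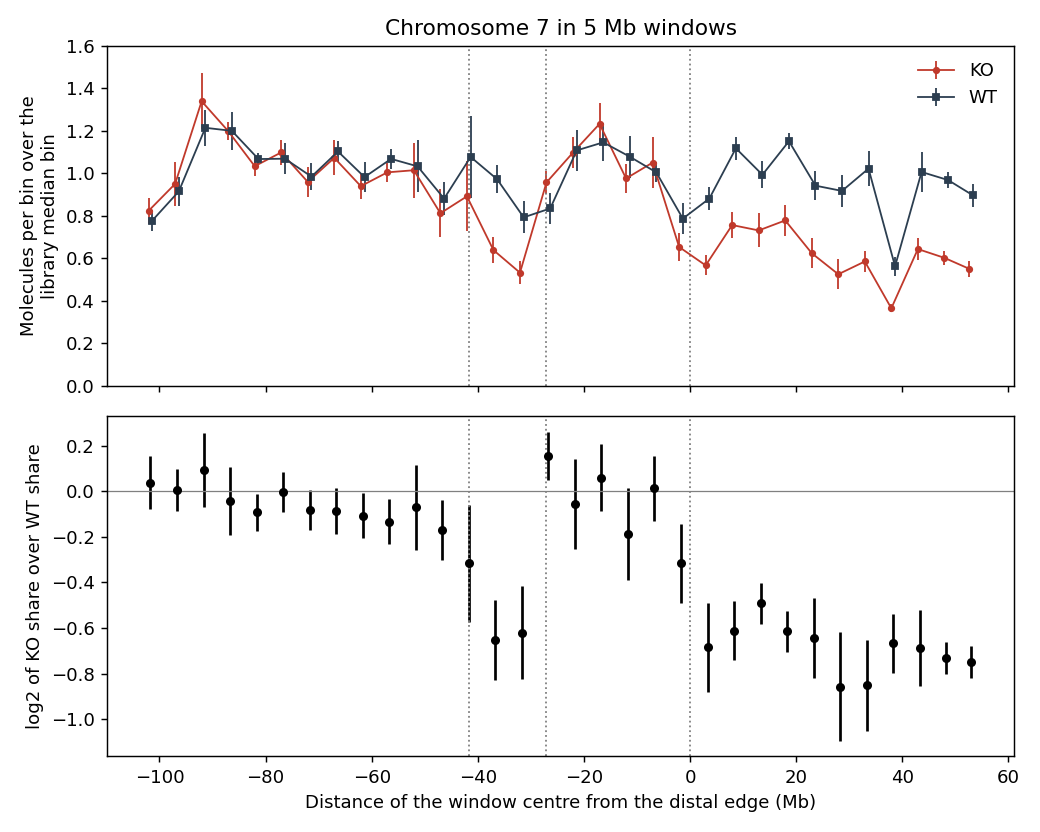
Chromosome 7 in windows of 5 Mb, placed by the distance of their centre from the distal edge in Mb. The upper panel shows molecules per bin over the library's median bin (mean and SD over 8 plates) in KO cells (red circles) and WT cells (dark squares), and the lower panel the log2 of the KO share over the WT share (mean and SD over 8 plates). Dotted lines mark the edges at 62.6, 77 and 104.2 Mb. KO values sit below WT values from the distal edge to the chromosome end and between the other edges. The distal windows run from -0.49 to -0.86.

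The depth of the drop varied along the distal interval. The windows from 130 to 135 Mb and from 135 to 140 Mb were lowest, at -0.86 ± 0.24 and -0.85 ± 0.20, and the window from 115 to 120 Mb was mildest at -0.49 ± 0.09 (SD, n = 8). The last window of the chromosome stood at -0.75 ± 0.07. Each of the 11 distal windows was lower in KO cells on 8 of 8 plates. The window from 140 to 145 Mb had few molecules in both genotypes, at 0.365 of the median bin in KO cells and 0.563 in WT cells, and a log2 difference of -0.67 ± 0.13.

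Bin by bin, limma voom with Benjamini-Hochberg adjustment over all 14159 bins tested called 167 of 264 tested distal bins lower in KO cells, and none higher. Over the whole genome 2.89% of bins were called lower and 0.523% higher. In the proximal interval 28 of 50 bins were called lower and none higher. All 50 of these bins and 262 of the 264 distal bins had a fitted value below 0, with medians of -0.69 and -0.71, against a median of -0.02 over all bins tested. These counts rest on the contrast that set the intervals and are given as a description. In 39 distal and 7 proximal bins the highest KO plate lay below the lowest WT plate, against 0.643% of all bins tested. With under 10 molecules on average, 13 bins of the chromosome were not tested, 8 of them in the distal interval and 5 in the rest.

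Over all bins tested, 2.89% were called lower in KO cells and 0.523% higher. The rest of chromosome 7 held 21 bins called lower (4.47%) and 4 called higher (0.851%), of 470 tested. Of the lower bins, 6 lay between 75 Mb and an edge at 77 Mb, 3 lay between an edge at 104.2 Mb and the distal interval, and 1 lay between an edge at 62.6 Mb and 65 Mb. A further 5 lay from 58.2 to 62.0 Mb, around the centromere, 2 from 35.6 to 44.4 Mb and 4 from 93.2 to 101.8 Mb. The 4 higher bins all lay between 78.4 and 79.8 Mb.

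Dividing the log2 ratios of the chromosome into 4 stretches of even level by weighted least squares put the edges at 62.6 (proximal), 77 (middle) and 104.2 Mb (distal edge; GRCh38). The stretch from 62.6 to 77 Mb had a log2 of KO over WT of -0.61 ± 0.15, the stretch from 104.2 Mb to the end -0.68 ± 0.05, the stretch before 62.6 Mb -0.06 ± 0.04, and the stretch from 77 to 104.2 Mb -0.00 ± 0.09 (SD, n = 8). The lower stretches thus measured 14.4 Mb and 55.1 Mb, wider than the intervals they contain. On single plates the middle edge fell within 1 Mb of its place on 7 of 8 plates, between 73.6 and 77.6 Mb. The distal edge was within 1 Mb on 4 plates and ranged from 97.8 to 106.4 Mb. The proximal edge was the least sharp: it was within 1 Mb on 2 plates and ranged from 51.6 to 65.2 Mb.

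**Figure D2:**
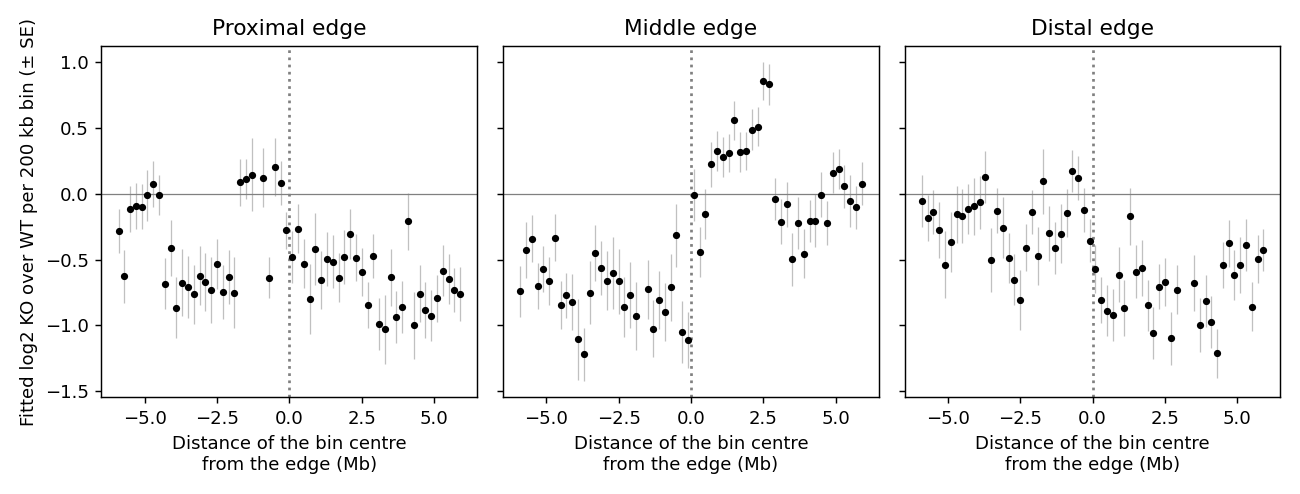
Fitted log2 of KO over WT in single 200 kb bins within 6 Mb of each edge, with standard errors from limma voom over 8 plates, against the distance of the bin centre from the edge in Mb. At the middle edge the values step up within 1 bin and pass 0 further on; at the distal edge they go down over about 1 Mb; at the proximal edge low values also occur before the edge.

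In each genotype's own profile, only the middle edge showed a step in the same direction on all plates of both genotypes. Over the middle edge the molecules of the 5 Mb after it exceeded those of the 5 Mb before it by 1.88 ± 0.30 on the log2 scale in KO cells and by 0.96 ± 0.13 in WT cells (SD, n = 8 each). Over the distal edge the same measure was -0.29 ± 0.18 in KO cells and 0.24 ± 0.10 in WT cells. KO plates all stood below 0 there and WT plates all above it. Over the proximal edge it was -0.45 ± 0.24 in KO cells and -0.13 ± 0.22 in WT cells, with overlapping plates. The edges were set from the KO over WT ratios of these same plates, so the differences between genotypes across them are a description.

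The distal edge falls near the start of ORC5, which encodes a subunit of the origin recognition complex that loads the replicative helicase. ORC5 (chr7:104126341-104208013) contains the edge as placed with 200 kb bins, and LHFPL3, a long gene for a tetraspan membrane protein, follows it (chr7:104328603-104908561). With 100 kb bins the edge stood at 104.1 Mb, outside ORC5, and on single plates it ranged from 97.8 to 106.4 Mb. The edge is therefore not placed to the gene. ORC5 had 16.5, 25.2 and 30.4 CPM (molecules per 1000000 of the library; lowest, median and highest plate) in KO cells, against 30.0, 33.8 and 41.2 in WT cells. Its log2 of KO over WT was -0.50 ± 0.20 (SE) and did not pass the test (limma voom adjusted p = 0.294). LHFPL3 had 98.9, 115 and 150 CPM in KO cells, against 175, 209 and 257 in WT cells. It fell by 0.80 on the log2 scale (SE 0.12, limma voom adjusted p = 5.46e-06), with no overlap of the genotypes. The values of both genes repeat the bins from which the edge was set, so they are no separate evidence of it. The starts of both genes lie in the first bin after the edge, and the 250 bases upstream of each are shown as its landmarks, from RefSeq on GRCh38.p14, with CG dinucleotides in capitals. The ORC5 window is chr7:104208014-104208263 on the minus strand and the LHFPL3 window chr7:104328353-104328602 on the plus strand.
ORC5: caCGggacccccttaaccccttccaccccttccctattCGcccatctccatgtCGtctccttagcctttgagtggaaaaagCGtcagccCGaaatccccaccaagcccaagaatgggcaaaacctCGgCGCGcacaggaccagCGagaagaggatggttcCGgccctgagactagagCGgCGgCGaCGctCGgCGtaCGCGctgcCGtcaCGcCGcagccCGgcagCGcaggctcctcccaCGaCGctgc
LHFPL3: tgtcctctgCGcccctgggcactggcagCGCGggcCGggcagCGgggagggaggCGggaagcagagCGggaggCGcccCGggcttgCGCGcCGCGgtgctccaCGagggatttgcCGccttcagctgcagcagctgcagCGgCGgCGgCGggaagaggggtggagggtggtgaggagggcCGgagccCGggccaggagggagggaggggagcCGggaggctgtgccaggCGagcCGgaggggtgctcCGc
Each window holds 25 CG dinucleotides (CG reads the same on both strands), a number reached by 21.6% of 35116 such windows, whose median is 11. The match describes the letters only.

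The middle edge lies in a cluster of near-identical SPDYE genes, of which SPDYE17 (chr7:77022306-77032361) and SPDYE18 (chr7:77050391-77062558) were nearest. Both had too few molecules to be tested, medians of 0.751 and 1.51 CPM in KO cells and 0.767 and 2.70 in WT cells, and reads of such copies cannot be placed with certainty. Nearest to the proximal edge were the uncharacterised genes LOC124901649 and LOC124901797, over 1 Mb away, with no molecule in any library.

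Beyond the middle edge KO cells carried more label than WT cells. From 77 to 80 Mb the level over the median bin was 1.27, 1.43 and 1.54 in KO cells (lowest, median and highest plate), against 0.974, 1.06 and 1.20 in WT cells. The genotypes did not overlap, KO was higher on 8 of 8 plates, and the log2 difference was 0.35 ± 0.13 (SD, n = 8). This part begins at an edge that was set from the same KO over WT ratios, so these values are a description. When 5 stretches were allowed, a stretch of its own appeared from 77.6 to 79.8 Mb, at 1.39 times the WT level. The long gene MAGI2 (chr7:78017055-79453667), which encodes a scaffold protein of cell junctions and synapses, covers much of it. MAGI2 had 738, 793 and 876 CPM in KO cells, against 533, 595 and 648 in WT cells, and rose by 0.46 ± 0.07 (log2, SE, limma voom adjusted p = 6.20e-06). It was the only gene of 443 tested on the chromosome that was called higher, and 0.205% of all genes tested were.

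Genes of the distal interval were then counted over their whole bodies. Of 150 protein-coding genes tested there, 48 were called lower and none higher, where 1.1% of all 9265 genes tested were called lower. The median log2 of KO over WT was -0.72 over these 150 genes, -0.07 over the 278 genes tested in the rest and -0.05 over all genes tested. Gene values sum the molecules over the gene body and repeat the bins beneath them, so they are no separate evidence.

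Among 26 neuronal and long genes of distal 7q, 16 were called lower, none was called higher, and the median was -0.63. Of the 150 distal genes tested 32% were called lower, and of all genes tested 1.10% were called lower and 0.205% higher. The interval was set from this same difference, so the calls, p-values and overlaps of its genes are a description. PLXNA4, a semaphorin receptor subunit of growing axons (chr7:132123340-132648688), had 49.8, 89.6 and 112 CPM in KO cells, against 152, 195 and 224 in WT cells. It fell by 1.19 on the log2 scale (SE 0.13, limma voom adjusted p = 1.41e-08) with no overlap, and it lies in the 5 Mb window that was lowest on the chromosome. TFEC, a transcription factor of the MiT family (chr7:115935152-116159896), had 25.8, 36.0 and 53.8 CPM in KO cells, against 60.4, 81.2 and 93.9 in WT cells, a log2 difference of -1.02 ± 0.17 (SE, limma voom adjusted p = 9.34e-05). The highest KO plate again lay below the lowest WT plate. The longest genes of the interval were lower as well. CNTNAP2, a neurexin family adhesion protein of myelinated axons (chr7:146116801-148420998), had 444, 497 and 650 CPM in KO cells, against 555, 793 and 923 in WT cells, and fell by 0.59 (SE 0.09) with some overlap of plates. DPP6, an auxiliary subunit of A-type potassium channels, had 165, 215 and 251 CPM in KO cells, against 311, 352 and 430 in WT cells, and fell by 0.72 (SE 0.10). PTPRN2, a protein of dense-core secretory vesicles near the chromosome end, had 95.8, 135 and 178 CPM in KO cells, against 204, 261 and 388 in WT cells, and fell by 0.95 (SE 0.13). The limma voom adjusted p-values of CNTNAP2, DPP6 and PTPRN2 were 3.62e-05, 5.46e-06 and 1.52e-06. At the other end of the list, COG5, a Golgi tethering subunit, had few molecules and a value of 0.14 ± 0.36 (SE). VWDE, placed in this list in error, lies on the short arm (chr7:12330885-12403865) and had a value of 0.00 ± 0.21.

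Among 31 signalling, chromatin and repair genes of distal 7q, 23 were tested, 9 were called lower and none higher, and the median was -0.78. Of the 150 distal genes tested 32% were called lower, and of all genes tested 1.10%. These calls repeat the difference that set the interval and are a description. RHEB, the GTPase that activates mTORC1 (chr7:151466012-151519895), had 2.30, 6.19 and 19.8 CPM in KO cells, against 10.0, 14.2 and 23.1 in WT cells. It fell by 1.33 (SE 0.35, limma voom adjusted p = 0.0321), but the plates overlapped and the call was lost with the plate as a block (adjusted p = 0.123). POT1, which caps single-stranded telomeric DNA, stood at -0.29 ± 0.19, and TNPO3, a nuclear import receptor, at 0.08 ± 0.24. Neither passed the test, and the plates of both overlapped.

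In the proximal interval, 12 of 33 genes of the Williams-Beuren region and its neighbours had enough molecules to be tested. All 12 had values below 0, with a median of -0.58. Of these, 3 were called lower, and 5 with the plate as a block, against 1.10% and 1.33% of all genes tested. They repeat the bins of an interval set from this same difference, so the counts are a description. AUTS2, a long neurodevelopmental gene (chr7:69598475-70793506), had 286, 305 and 447 CPM in KO cells, against 373, 469 and 555 in WT cells, and fell by 0.52 (SE 0.10, limma voom adjusted p = 0.000433). CALN1, a brain calcium-binding protein (chr7:71779491-72504279), had 135, 189 and 212 CPM in KO cells, against 205, 280 and 300 in WT cells, and fell by 0.52 (SE 0.11, limma voom adjusted p = 0.00344). The plates of both genes overlapped at the margins. TYW1, an enzyme that makes the tRNA base wybutosine (chr7:66996833-67239514), had 18.5, 43.6 and 67.9 CPM in KO cells, against 54.2, 69.4 and 88.2 in WT cells, and fell by 0.87 (SE 0.19, limma voom adjusted p = 0.00641). It has a near-identical copy, TYW1B, so reads may be shared between them. GALNT17, a glycosyltransferase family member, stood at -0.44 ± 0.14 and was called with the plate as a block (adjusted p = 0.0226) but not without it (limma voom adjusted p = 0.121). VKORC1L1, an enzyme of the vitamin K cycle, and RABGEF1, an exchange factor for endosomal RAB5, stood at -0.76 ± 0.32 and -0.25 ± 0.24 and did not pass.

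Of 44 comparison genes in the rest, 38 were tested, LHFPL3 was called lower, MAGI2 was called higher, and the median was -0.06. SDK1, HDAC9, IKZF1 and GNA12 had values of 0.26 ± 0.09, -0.05 ± 0.09, 0.42 ± 0.21 and -0.73 ± 0.23 (SE) and did not pass. Including genes outside the lists, 4 of 278 genes in the rest were called lower. They were LHFPL3 and 3 genes named after their values were seen, HIP1, which lies before the middle edge, VPS50 and GNAT3.

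The drop was present in bins copied early, midway and late. With all bins divided into terciles by timing, the distal interval stood at -0.76 ± 0.28 in early, -0.73 ± 0.10 in middle and -0.58 ± 0.14 in late bins, and the proximal interval at -0.74 ± 0.31, -0.64 ± 0.13 and -0.58 ± 0.21 (log2 of KO over WT, SD, n = 8). Each of these values was below 0 on 8 of 8 plates. In the rest the early bins stood at -0.22 ± 0.21, the middle bins at -0.03 ± 0.12 and the late bins at -0.00 ± 0.16. The differences between the classes were not tested.

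Replication timing, which is a mean over molecules and not their number, was compared as the position of a plate's cells along S phase, from 0 (early) to 1 (late), weighted by their molecules in the region. Cells were ordered by a correspondence analysis that left out chromosome 7. The distal interval differed from the rest by 0.00670 ± 0.0129 in KO cells and by 0.00654 ± 0.0110 in WT cells (SD, n = 8 each). The difference between the genotypes was 0.000161 ± 0.0111, above 0 on 4 of 8 plates (adjusted p = 0.961; exact permutation flipping signs over plates, two-sided). The proximal interval was later than the rest by 0.0168 ± 0.0232 in KO cells and by 0.0426 ± 0.0277 in WT cells. Its difference of -0.0258 ± 0.0344, below 0 on 7 of 8 plates, passed narrowly (adjusted p = 0.0469, exact permutation by sign flips). The call was lost when any 1 of 7 plates was left out (adjusted p from 0.0625 to 0.0938) and under 3 other settings. Of single bins with at least 20 molecules in every library, limma called 29 of 218 distal bins earlier and 59 later in KO cells. Over the genome 12.2% were called earlier and 15.3% later. The proximal interval had 12 earlier and 8 later of 34 bins, and the rest 54 earlier and 98 later of 436. This minimum kept 34 of 50 proximal, 218 of 272 distal and 436 of 475 other bins.

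The size of the difference changed with how strongly a well was labelled. In wells of 20000 or more molecules, the distal molecules divided by those of the rest of chromosome 7 were 0.304, 0.318 and 0.345 in KO cells (lowest, median and highest plate), against 0.530, 0.541 and 0.569 in WT cells. The genotypes were far apart, with a log2 of KO over WT of -0.76 ± 0.08 (SD, n = 8). In wells of 5000 to under 20000 molecules the ratios were 0.308, 0.350 and 0.389 in KO cells, against 0.490, 0.515 and 0.592 in WT cells, a difference of -0.61 ± 0.17. In wells of 1000 to under 5000 molecules they were 0.391, 0.440 and 0.456 in KO cells, against 0.457, 0.487 and 0.513 in WT cells, a difference of -0.16 ± 0.12. The genotypes did not overlap in any of these 3 classes, but they lay close together in the last. Taking both genotypes together, the ratio was 0.465 over all wells from 1000 molecules.

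Wells of 50 to under 1000 molecules, 265 KO and 284 WT, had not entered the values from which the intervals were set and could be tested. Their distal ratios were 0.409, 0.453 and 0.467 in KO cells, against 0.407, 0.468 and 0.534 in WT cells. The groups overlapped over the whole KO range, and the log2 difference was -0.06 ± 0.18, lower in KO on 5 of 8 plates (adjusted p = 0.352, exact permutation, two-sided). Plates ranged from -0.39 to 0.17, so the strong-well value of -0.76 lay outside the range of the weak wells. The proximal ratios of these wells were 0.0506, 0.0710 and 0.0840 in KO cells, against 0.0618, 0.0811 and 0.123 in WT cells. Their difference was -0.23 ± 0.35, lower in KO on 6 of 8 plates, and did not pass (adjusted p = 0.203, exact permutation). For this interval the stronger classes stood at -0.29 ± 0.15, -0.80 ± 0.42 and -0.63 ± 0.15, in order of rising label. Weak wells held 437 KO and 515 WT molecules in the proximal interval and 2723 KO and 2889 WT molecules in the distal one. The smallest p that 8 plates allow is 0.00781, and what part the strength of labelling has in the differences between classes was not tested.

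**Figure D3:**
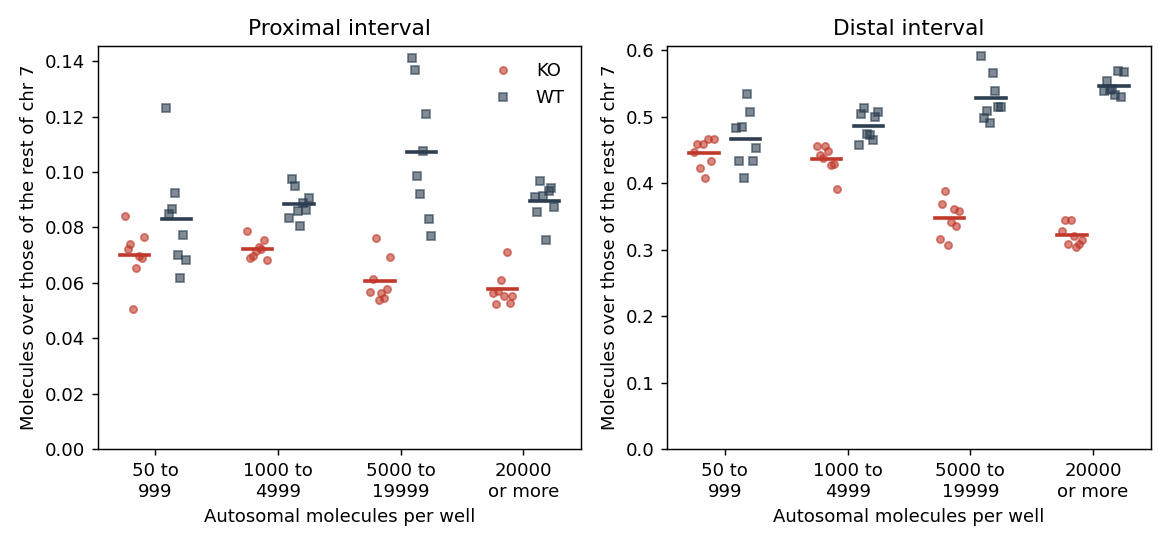
Molecules of the proximal interval (left) and of the distal interval (right) divided by those of the rest of chromosome 7, in wells of rising numbers of autosomal molecules. Each point is 1 plate, KO cells in red at the left and WT cells in dark squares at the right of each class, and lines are means over 8 plates. In the distal panel the genotypes overlap in the weakest wells, with means of 0.445 in KO and 0.467 in WT cells, and are apart in the strongest, with 0.322 in KO and 0.546 in WT cells.

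When all cells from 1000 molecules were used, the distal difference was present in each tercile of S phase, but the terciles differed in strength of labelling. In the early, middle and late terciles of ordered cells it was -0.62 ± 0.06, -0.62 ± 0.10 and -0.63 ± 0.06, and that of the proximal interval was -0.55 ± 0.14, -0.45 ± 0.10 and -0.68 ± 0.25 (log2 of KO over WT of the ratio to the rest, SD, n = 8). None of 6 pairwise differences between terciles passed (exact sign-flip permutation over 8 plates, adjusted p from 0.141 to 0.992), and 1 of the 6, late minus middle in the proximal interval, had an unadjusted p under 0.05. Restricting the comparison to cells with at least 5000 molecules, a choice made after seeing the data, gave -0.67 ± 0.08, -1.07 ± 0.22 and -0.68 ± 0.08 for the distal interval. In the middle tercile the ratio was then 0.193, 0.280 and 0.297 in KO cells, against 0.515, 0.544 and 0.595 in WT cells. The middle tercile lay below the early tercile by a difference of -0.40 ± 0.22 on 8 of 8 plates (adjusted p = 0.0234, exact permutation). This tercile held 43 KO and 44 WT such cells, and as few as 1 cell of a genotype on a plate, against 164 KO and 224 WT cells in the early tercile. With all cells from 1000 molecules the middle tercile held 397 KO and 413 WT cells, so most of its cells had under 5000 molecules. Wells of 1000 to under 5000 molecules had a distal difference of only -0.16 ± 0.12. The like values of the terciles with all cells therefore mix classes of labelling, and the part of labelling in them was not tested.

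In single cells, most KO cells lay below most WT cells. For each of 431 KO and 483 WT cells with at least 5000 molecules, the log2 ratio of distal to rest molecules was set against the mean of both genotypes at the same S-phase position. The median was -0.36 in KO cells and 0.35 in WT cells, and the histogram of each genotype, in steps of 0.25, had 1 peak. Per plate, 91.9% ± 4.05% of KO cells lay below the WT median, and 3.20% ± 2.05% of WT cells below the KO median (SD, n = 8). In all, 36 KO cells lay above the WT median and 13 WT cells below the KO median. The SD over cells was 0.477 in KO and 0.336 in WT cells, where counting alone gives 0.134 in KO and 0.0968 in WT cells. A stretch of 272 bins at the start of the chromosome, set against the other bins of the rest, had a like spread of 0.457 in KO and 0.338 in WT cells, and medians of 0.02 in KO and -0.04 in WT cells. Per plate, 43.3% ± 11.8% of KO cells lay below the WT median in that stretch (SD, n = 8). KO cells held fewer molecules in the distal interval, a median of 191 against 477 in WT cells.

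**Figure D4:**
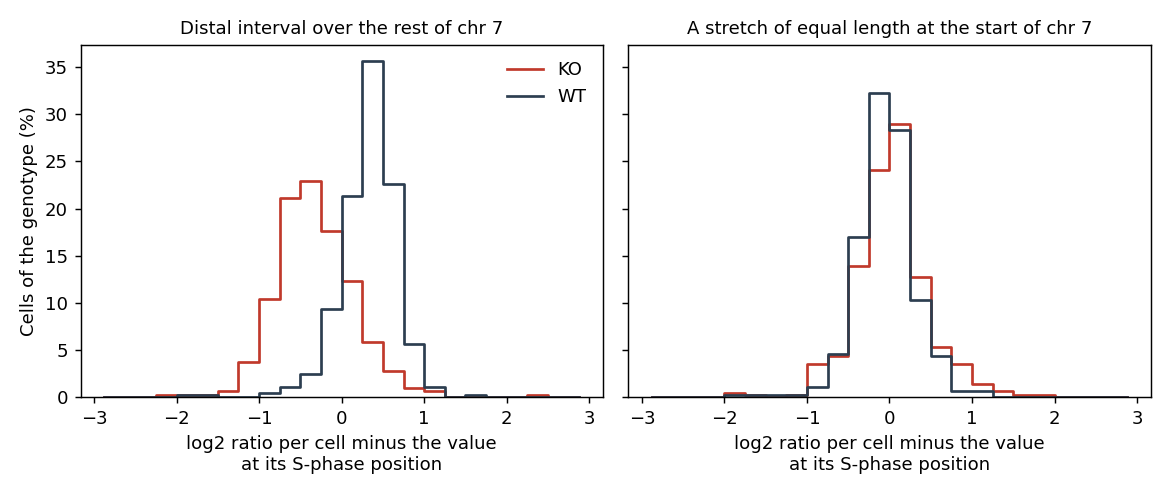
Distribution over single cells of the log2 ratio per cell after subtraction of the value at its S-phase position, as the percentage of cells of a genotype in steps of 0.25, for 431 KO cells (red) and 483 WT cells (dark). The left panel shows the distal interval over the rest, with medians of -0.36 in KO and 0.35 in WT cells. The right panel shows a stretch of equal length at the start of the chromosome, with medians of 0.02 in KO and -0.04 in WT cells and a wider spread in KO cells.

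The proximal interval behaved alike with more noise. The median was -0.30 in KO cells and 0.35 in WT cells, the SD 0.856 in KO and 0.617 in WT cells, and counting alone gives 0.331 in KO and 0.203 in WT cells. Per plate, 81.8% ± 4.93% of KO cells lay below the WT median (SD, n = 8), and the same measure was 58.1% ± 8.96% for a stretch of equal length from 10 to 20 Mb. A KO cell held a median of 30 molecules in the proximal interval and a WT cell 77. Over cells, the values of the proximal and distal intervals correlated with r = 0.292 (Spearman's rho 0.267) in 431 KO cells and with r = 0.0644 (rho 0.111) in 483 WT cells. Both values of a cell share its rest-of-chromosome molecules, so this is a description.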

How the data were processed

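Single-cell EdU sequencing (scEdU-seq) of 8 plates was analysed. The deposited values are other than counts: per the file headers, each row gives the cell, chromosome, base position, signed length and genotype of a fragment. Per the submitters' processing notes the genome build is GRCh38; the sources used here do not give aligner, filters or duplicate removal. Genotype came from the cell-level column, since the genotype label is CFAP20-KO on every plate. The members, intervals and gene lists were chosen with earlier results of these data known.

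Fragments were summed per 200 kb bin, or per protein-coding gene body from a RefSeq table without strand, and per plate and genotype, over cells with at least 1000 autosomal molecules, scaled by the autosomal and X total. Features with a mean of at least 10 molecules were tested with limma 3.58.1 (voom, R 4.3.3), timing with limma after centring each library on its median, in bins of at least 20 molecules per library. Calls use a Benjamini-Hochberg adjusted p under 0.05. For single values the plates' signs were flipped in an exact permutation test (two-sided). Cells were ordered by the leading axis of a correspondence analysis on 500 kb bins (18.9% of variation; leaving chromosome 7 in gave a rank correlation of 1.00 with it). Named genes are the 2 highest and 2 lowest tested members of each list, the 3 longest genes of each region, and those at or nearest to an edge. A result on an item withheld here is not reported. Other scripts used Python 3.11.15 with numpy 2.4.6 and pandas 2.3.3.

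The titles place both genotypes on each plate, so plates pair the libraries. Deviations of same-plate libraries from their genotype means correlated by 0.0875 on average (-0.0568 to 0.183), against -0.0127 between plates, and 4 of 8 KO libraries correlated best with their own plate. No 2 plates held the same data, with chi-squared per degree of freedom of 4.00 to 10.2 over 28 pairs. On simulated data, limma voom recovered 50.5% of 200 bins changed 1.6-fold among 14159, with 9.01% false calls, the timing fit 65.5% of 200 bins shifted by 0.15 among 13258, and the division into 4 stretches placed 3 of 3 simulated edges in the right bin of 797. Molecules are fragments without molecular identifiers, and no interval for counting error is given. Alternatives covered minimum molecules, cell weights, strata of S phase, repeated fragments, bin sizes, scaling, the plate as a block, numbers of stretches and plates left out.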

Additional observations from a re-analysis of the deposited data

Results flagged for a closer look

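In cells with at least 5000 molecules, the difference between genotypes in the distal interval was not the same in all parts of S phase. The log2 of KO over WT of the ratio to the rest of chromosome 7 differed between the middle and the early tercile by -0.40 ± 0.22 (middle minus early, SD, n = 8), below 0 on 8 of 8 plates. Late minus middle, it differed by 0.39 ± 0.26, above 0 on 8 of 8 plates. Both differences passed an exact permutation test that flips the signs of plates (two-sided), with Benjamini-Hochberg adjustment over 6 differences (adjusted p = 0.0234 each). The minimum was chosen after seeing the data, and the middle tercile held 43 KO and 44 WT cells, with as few as 1 cell of a genotype on a plate. With all cells from 1000 molecules the same differences were -0.00 ± 0.13 and -0.02 ± 0.05. The middle tercile then held 397 KO and 413 WT cells, most of them under 5000 molecules, so the terciles also differed in strength of labelling.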

How the results depend on the processing

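Of 214 alternative values, 181 kept their direction and their side of the threshold (values without a test moved by less than 1 SD between plates, and counts by less than 1.5 times), and 14 changed sign. The log2 of KO over WT of the distal interval moved to -0.77 with at least 5000 molecules per cell, to -0.36 with equal weight per cell and to -0.62 with 10 strata of S-phase position, and the proximal value moved to -0.42 with equal weight per cell. Leaving out a plate gave -0.69 to -0.67 and -0.67 to -0.61. The timing difference of the proximal interval lost its call with at least 5000 molecules per cell (-0.0220), with equal weight per cell (-0.0183), with plates ignored as a block (-0.0258, adjusted p = 0.123) and without single plates (all plates left out in turn, -0.0297 to -0.0178; without plate 6 it kept its call). With at least 5000 molecules per cell the terciles of S phase differed in the distal interval, by -0.40 (middle minus early) and 0.39 (late minus middle). The late minus middle value had the other sign with all cells from 1000 molecules. The other changes of sign were in results that did not pass under either setting. The distal difference in weak wells was 0.20 in wells of 50 to under 300 molecules. The distal timing difference was -0.00133 with at least 300 molecules per cell, -0.000585 with equal weight per cell and -0.00199 to 0.00242 with a plate left out. In the proximal interval, middle minus early was -0.18 and late minus middle 0.0725 with at least 5000 molecules per cell. In the distal interval, middle minus early was -0.0250 to 0.0215 with a plate left out. The division into 3 stretches had no edge near 62.6 Mb, its nearest being 77.6 Mb. With 3, 5, 6 or 8 stretches the middle edge stood at 77.6 Mb in place of 77 Mb. With 500 kb bins 137 bins of chromosome 7 were called for molecules and 152 for timing, where there are fewer bins, and a minimum of 50 molecules in every library left 99 called for timing. With the plate as a block 248 bins were called for molecules, 277 for timing and 64 genes. It also changed calls of single bins and genes, among the list genes those of RHEB, GALNT17, TPST1 and PRKAG2, the last 2 named after their values were seen. Wells of under 300 molecules gave no value for the proximal interval, since some libraries had no molecule there. Few molecules limit the weak wells, and few cells the middle tercile.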
